A study of Mus musculus with 2 samples.

Results

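The genes described here encode 5 receptor tyrosine kinases and 5 of their ligands. They are the PDGF receptors Pdgfra and Pdgfrb with the ligands Pdgfa, Pdgfb and Pdgfc, the VEGF receptors Kdr and Flt1 with the ligand Vegfa, and the stem cell factor receptor Kit with its ligand Kitl. These 10 genes were chosen by symbol, and all 10 were found among the 13620 distinct genes of the deposited table. The data are 2 libraries of polyadenylated RNA. Both came from mouse embryonic stem (ES) cells, strain C57BL/6J: 1 of genotype WT and 1 of genotype Fbxl10 T/T. Both cultures were grown with serum and leukemia inhibitory factor on mitomycin C-treated fibroblast feeders, which were removed by attachment before use. Fbxl10 is an older name of Kdm2b, a subunit of a variant Polycomb complex whose CXXC domain binds unmethylated CpG-rich DNA. The labels do not say what the T allele changes or how many clones were used, and with 1 library per genotype no difference could be tested.

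Receptor tyrosine kinases span the plasma membrane, pair up when a ligand bridges them, and phosphorylate each other to recruit adaptors of the RAS-ERK and PI3K-AKT routes. PDGF and VEGF ligands are related disulphide-linked dimers, whereas KIT ligand belongs to a separate family of helical cytokines. In the early embryo Pdgfra is known as a marker of primitive endoderm, the layer that gives rise to the yolk sac endoderm, while Pdgfa is made by the epiblast beside it. Kdr and Flt1 are best known from endothelium and its precursors, and Kit from germ cells, melanocytes and blood progenitors as well as ES cells.

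The levels given are normalised CPM, meaning reads of a gene per 1000000 reads of an effective library size. The listed genes held 21198574 recovered reads in wild type, against 27109446 in Fbxl10 T/T, so that 3 reads, the limit allowed by a count of 0, correspond to 0.126 and 0.122 CPM. Kdm2b, which checks the labels, stood at 102.5 CPM in the wild-type library against 10.6 CPM, 9.66-fold lower in Fbxl10 T/T (8.50 to 11.0). Such bracketed ranges are exact binomial (Clopper-Pearson) 95% intervals of the ratio. They cover counting error only, not variation between cultures, and reads without molecular identifiers are not independent molecules. Both cultures are labelled ES cell, but pluripotency markers (13 genes) summed to 7662 CPM in the wild-type library and 2177 CPM in the other, and primitive endoderm markers (19 genes) to 9627 and 78861 CPM. Log2 ratios compare Fbxl10 T/T with wild type after adding 0.5 CPM to both values, which understates the ratios of low genes. The 2-fold classes use this scale, among the 13512 genes that reached 1 CPM in either library.

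Because KDM2B binds CpG-rich DNA, and because 4 of the receptors moved together, the promoters of these receptors are shown, with those of 2 ligands that were lower. Each sequence runs from 250 bases before to 50 bases after a RefSeq transcription start (build GRCm38.p6, which is not the mm9 build of the deposited table), 5′ to 3′ on the strand of the gene, with every CG dinucleotide in capitals. The windows are those of Pdgfra (chr5:75152001-75152300, plus strand), Kit (chr5:75574737-75575036, plus strand), Kdr (chr5:75978406-75978705, minus strand), Flt1 (chr5:147725962-147726261, minus strand), Pdgfc (chr3:81036166-81036465, plus strand) and Kitl (chr10:100015571-100015870, plus strand).
Pdgfra: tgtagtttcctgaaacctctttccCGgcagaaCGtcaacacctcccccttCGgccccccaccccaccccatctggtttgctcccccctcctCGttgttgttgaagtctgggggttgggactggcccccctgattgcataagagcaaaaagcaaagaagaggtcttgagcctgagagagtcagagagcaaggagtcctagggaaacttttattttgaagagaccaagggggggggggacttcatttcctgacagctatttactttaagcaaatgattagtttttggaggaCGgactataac
Kit: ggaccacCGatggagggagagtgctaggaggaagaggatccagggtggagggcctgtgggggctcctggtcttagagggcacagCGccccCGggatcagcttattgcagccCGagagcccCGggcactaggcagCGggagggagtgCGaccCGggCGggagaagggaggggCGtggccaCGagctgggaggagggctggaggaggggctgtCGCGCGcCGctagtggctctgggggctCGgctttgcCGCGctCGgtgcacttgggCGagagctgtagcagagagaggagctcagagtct
Kdr: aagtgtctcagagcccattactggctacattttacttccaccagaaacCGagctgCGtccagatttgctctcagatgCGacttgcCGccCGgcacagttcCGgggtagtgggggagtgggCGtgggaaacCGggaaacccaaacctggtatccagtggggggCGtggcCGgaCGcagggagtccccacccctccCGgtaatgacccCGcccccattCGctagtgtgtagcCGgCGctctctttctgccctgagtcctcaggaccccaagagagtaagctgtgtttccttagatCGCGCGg
Flt1: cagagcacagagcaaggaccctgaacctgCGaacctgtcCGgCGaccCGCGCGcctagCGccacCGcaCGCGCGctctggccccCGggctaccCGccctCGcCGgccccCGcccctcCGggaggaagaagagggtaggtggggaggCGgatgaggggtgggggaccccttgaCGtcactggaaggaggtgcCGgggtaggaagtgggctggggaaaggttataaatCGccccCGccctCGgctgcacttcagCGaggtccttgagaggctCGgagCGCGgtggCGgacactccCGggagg
Pdgfc: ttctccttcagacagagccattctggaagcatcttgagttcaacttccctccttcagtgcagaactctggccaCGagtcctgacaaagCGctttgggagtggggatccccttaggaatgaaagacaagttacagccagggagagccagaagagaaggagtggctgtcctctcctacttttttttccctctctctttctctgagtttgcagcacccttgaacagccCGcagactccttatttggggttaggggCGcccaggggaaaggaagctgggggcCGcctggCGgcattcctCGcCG
Kitl: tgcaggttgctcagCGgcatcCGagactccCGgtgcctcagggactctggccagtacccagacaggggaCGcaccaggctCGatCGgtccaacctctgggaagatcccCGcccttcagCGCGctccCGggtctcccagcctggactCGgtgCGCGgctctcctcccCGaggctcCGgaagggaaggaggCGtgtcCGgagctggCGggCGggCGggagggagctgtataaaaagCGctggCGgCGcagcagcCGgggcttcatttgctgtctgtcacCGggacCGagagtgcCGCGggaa

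The receptor promoters did not share a CpG content. Pdgfra had 5 CG dinucleotides in its window and Flt1 had 29, while Kdr had 19 and Kit 20, or 21 in a second window. Over the first window of each of 27025 genes the median was 7, with quartiles of 3 and 21, and 94.2% of windows held at least 1. Among the ligands Pdgfc had 8, Kitl 28, Pdgfa 24 and 37 in its pair of windows, and Vegfa 16 and 10. Genes that were higher included a window below the median (Pdgfra) and one above the upper quartile (Flt1), and genes that were lower included one near the median (Pdgfc) and one above the upper quartile (Kitl). The motif GATAA, searched on both strands as a core of GATA factor sites, had 1 match in the first Vegfa window and none in the other 10 windows, against 25.8% of all genes with at least 1 match. The motif ACGTG, the core of hypoxia response elements, which itself contains a CG, had 1 match in the second Vegfa window and none elsewhere, against 19.7% of all genes. Windows were at hand for 8 of the 10 genes, not for Pdgfb and Pdgfrb.

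Receptors were mostly higher and ligands mostly lower in the Fbxl10 T/T library. Of the 5 receptor genes 4 were at least 2-fold higher and none was 2-fold lower, where 14.8% of all genes were higher. Of the 5 ligand genes 4 were at least 2-fold lower and 1, Vegfa, was higher, where 20.6% of all genes were lower. Of the 4 lower ligands, Pdgfb and Kitl reached 1 CPM in wild type only, so they entered this count through the library where they are high. All 4 receptors were also past a 4-fold threshold, which 3.84% of all genes passed upward, and 2 ligands were past it downward, as were 9.10% of all genes. The median log2 ratio of all 13512 genes was 0.02. RNA was measured in bulk, so a change in the share of cells that make an RNA and a change in RNA per cell cannot be told apart.

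**Figure D1:**
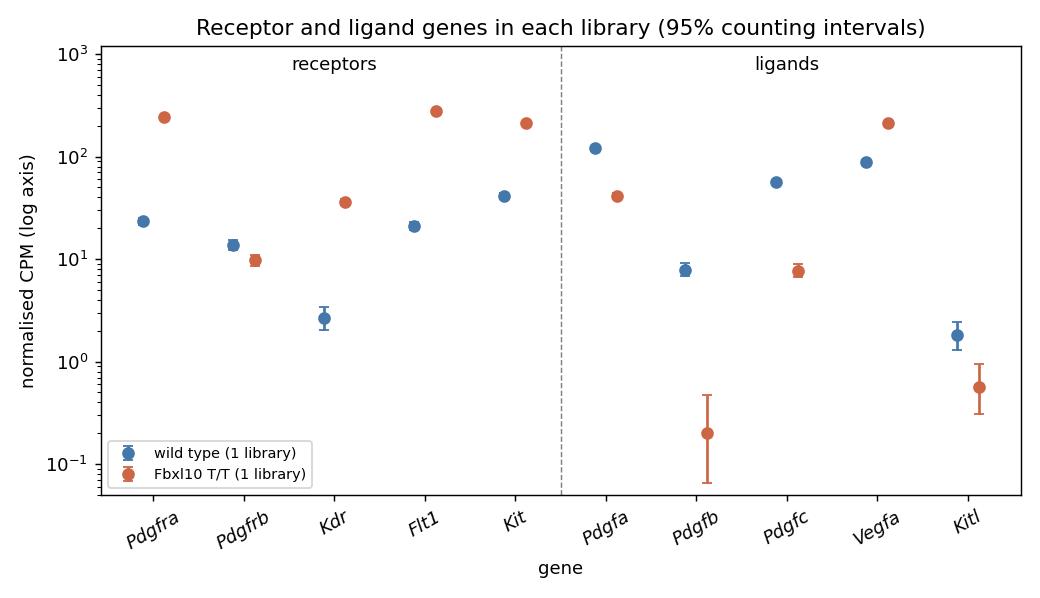
Normalised CPM (log axis) of the 5 receptor and 5 ligand genes in the wild-type and the Fbxl10 T/T library; points are single libraries and bars 95% Poisson counting intervals. Pdgfra, Kdr, Flt1 and Kit sit higher in Fbxl10 T/T, and Pdgfa, Pdgfb, Pdgfc and Kitl sit lower.

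Pdgfra encodes the PDGF receptor that binds the A, B and C chains. It was at 23.4 CPM (558 reads) in wild type and 243 CPM (6010 reads) in Fbxl10 T/T. The T/T level was 10.4-fold higher (9.55 to 11.4), and the log2 ratio of 3.35 ranked 71st from the top of 13512 genes. The gene (ENSMUSG00000029231) lies on chromosome 5 from 75548361 to 75594218 in mm9. Pdgfrb encodes the other PDGF receptor, which binds the B chain and is typical of mesenchymal and mural cells. It was at 13.7 CPM (326 reads) in wild type and 9.72 CPM (240 reads) in Fbxl10 T/T, 1.404-fold lower (1.18 to 1.67). It was thus the one receptor that was not higher, and the log2 ratios of the PDGF receptors differed by sign, at 3.35 and -0.47.

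All 3 PDGF ligand genes were lower in Fbxl10 T/T. Pdgfa, the A chain gene, went from 121.7 CPM (2906 reads) in wild type to 41.1 CPM (1015 reads), 2.96-fold lower (2.75 to 3.18). Per kb of transcript it was the highest of the 3 in both libraries. Pdgfc, whose product must be cut to become active, went from 56.6 CPM (1352 reads) to 7.74 CPM (191 reads), 7.32-fold lower (6.28 to 8.56). Pdgfb, the B chain gene, went from 7.91 CPM (189 reads) to 0.203 CPM (5 reads). Its fold of 39.1 (16.5 to 121.7) was the largest among the 10 genes and also the least precise, because it rests on 5 reads. The A chain value carries a limit of annotation: the interval listed for Pdgfa (ENSMUSG00000025856, chromosome 5, 139452896 to 139473324) overlaps that of 6330403L08Rik by 2315 bases. 6330403L08Rik was at 11.4 and 2.92 CPM, and the strand setting of the counting is not given in the sources used here. Pdgfb (ENSMUSG00000000489) is listed on chromosome 15 from 79826330 to 79845238 and Pdgfc (ENSMUSG00000028019) on chromosome 3 from 80840338 to 81017953.

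Both VEGF receptor genes were higher in Fbxl10 T/T, by folds above that of Pdgfra, although the interval of Kdr meets that of Pdgfra. Kdr encodes the main signalling receptor for VEGF-A, and Flt1 a receptor that binds it tightly and is also made as a secreted form that traps it. Flt1 was at 20.98 CPM (501 reads) in wild type and 277 CPM (6842 reads) in Fbxl10 T/T, 13.2-fold higher (12.1 to 14.5), at rank 39 from the top. Kdr was at 2.64 CPM (63 reads) and 36.5 CPM (900 reads), 13.8-fold higher (10.7 to 18.1), at rank 46. The intervals of these folds overlap, so counting error alone covers the gap between them. Membrane-bound and secreted Flt1 were not separated, as values are per gene. Flt1 (ENSMUSG00000029648) lies on chromosome 5 from 148373772 to 148537564 and Kdr (ENSMUSG00000062960) on the same chromosome from 76328852 to 76374483.

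Vegfa was the only one of the 5 ligands that was higher, as its receptors were. It was at 88.8 CPM (2121 reads) in wild type and 212 CPM (5236 reads) in Fbxl10 T/T, 2.39-fold higher (2.27 to 2.51), on chromosome 17 from 46153942 to 46168699 (ENSMUSG00000023951). Vegfa RNA is known to rise under hypoxia-inducible factors. Of 8 genes of that regulation 2 were at least 2-fold higher, where 14.8% of all genes were, and none was lower (median log2 ratio 0.55). These 8 mix subunits of the factors with hydroxylase genes, so their median does not measure the activity of the factors. The part of the 8 genes in the Vegfa value was not tested. The 2 higher genes were Egln1 and Epas1. Egln1, an oxygen-sensing hydroxylase gene, was at 51.7 and 134.8 CPM. Epas1, which encodes HIF-2 alpha, was at 168.2 and 390.7 CPM. Arnt, the partner subunit of the factors, had the smallest ratio, at 103.0 and 53.7 CPM, and the hydroxylase gene Egln2 was at 106.8 and 115.0 CPM. With both libraries at a common upper quartile 1 of the 8 was higher and 1 lower, and the log2 ratio of Vegfa went from 1.25 to 1.03, just past 2-fold.

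Kit and Kitl moved in opposite directions. Kit was at 41.3 CPM (986 reads) in wild type and 211 CPM (5214 reads) in Fbxl10 T/T, 5.12-fold higher (4.78 to 5.48). Per kb of transcript its wild-type level was the highest of the 5 receptors. Kitl, the stem cell factor gene, was low in both libraries, at 1.80 CPM (43 reads) in wild type and 0.567 CPM (14 reads) in Fbxl10 T/T. It was 3.17-fold lower (1.70 to 6.28), so the interval reaches below 2-fold. Its log2 ratio of -1.11 lay just past the 2-fold threshold and moved inside it, to -0.84, with a pseudocount of 1 CPM. Kit (ENSMUSG00000005672) is listed on chromosome 5 from 75971041 to 76052744 and Kitl (ENSMUSG00000019966) on chromosome 10 from 99478264 to 99563047. In the authors' deposited table the log2 ratios of wild type over T/T ran from -3.78 for Kdr to 5.22 for Pdgfb, and for none of the 10 genes did the ratio recomputed without a pseudocount differ from it by more than 0.070.

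**Figure D2:**
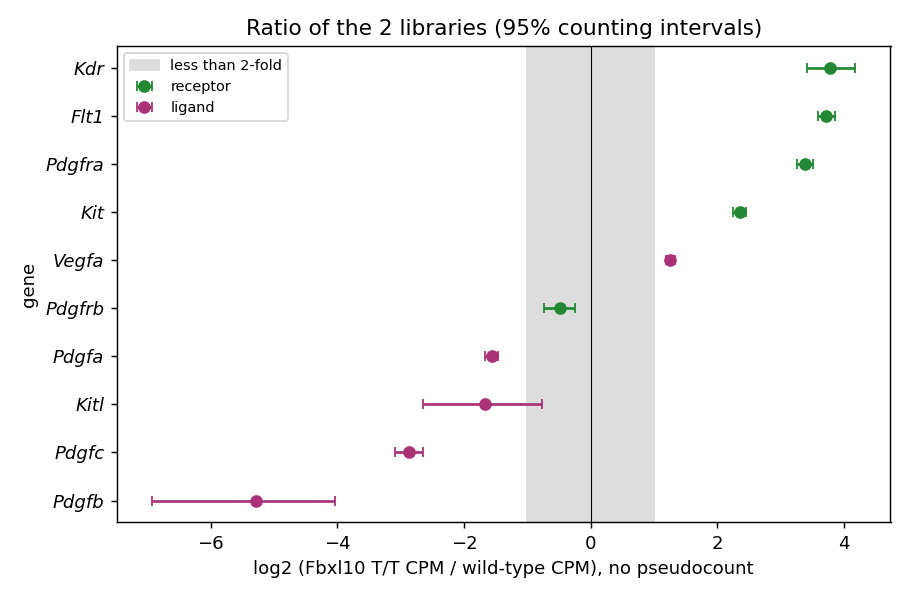
Log2 ratio of Fbxl10 T/T over wild type without a pseudocount, 1 point per gene with its 95% counting interval; the grey band marks less than 2-fold. Kdr, Flt1, Pdgfra, Kit and Vegfa lie above the band, Pdgfrb lies inside it, and the interval of Kitl reaches into it.

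Each receptor was next set against its own ligands, as the difference of their log2 ratios with a counting interval. Both use ratios with 0.5 CPM added, so differences from the low genes Pdgfb and Kitl are understated and their intervals are too narrow. Without the addition the log2 ratio of Pdgfb was -5.29 (-6.93 to -4.04) instead of -3.58. That of Kitl was -1.67 (-2.65 to -0.77) instead of -1.11. For Pdgfra the difference was 4.91 (4.75 to 5.07) from Pdgfa, 6.15 (5.91 to 6.39) from Pdgfc and 6.94 (6.51 to 7.37) from Pdgfb. Pdgfrb, although slightly lower itself, still lay 3.11 (2.64 to 3.59) above Pdgfb. The difference of Kit from Kitl was 3.45 (2.92 to 3.98). The VEGF pairs had the smallest differences, 2.31 (1.98 to 2.63) for Kdr and 2.44 (2.29 to 2.59) for Flt1 against Vegfa. In all 7 pairs the receptor had the larger ratio of T/T over wild type, and in the 4 pairs of Pdgfra and Kit with their ligands the receptor was higher while the ligand was lower. The 7 pairs share genes and the same 2 libraries, so they are not independent.

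Levels of different genes were compared per length, as normalised CPM per kb of the longest protein-coding transcript in GENCODE M21, whose gene models may differ from those the authors counted on. In wild type ligands led: Pdgfa was at 59.1 CPM per kb, Vegfa at 25.7 and Pdgfc at 16.1, followed by Kit at 7.88. Pdgfra (3.42), Flt1 (3.04), Pdgfb (2.69) and Pdgfrb (2.52) came next, and each neighbouring pair in this run had overlapping counting intervals. Kdr (0.445) and Kitl (0.319) were lowest, also with overlapping intervals. In Fbxl10 T/T the order was Vegfa at 61.5 CPM per kb, Kit at 40.3, Flt1 at 40.2, Pdgfra at 35.6 and Pdgfa at 20.0. Kit and Flt1 were not separable by counting error there. Kdr (6.15), Pdgfc (2.20) and Pdgfrb (1.79) followed, with overlapping intervals for Pdgfc and Pdgfrb. Kitl (0.1004) and Pdgfb (0.0688) were last and not separable. The ligand genes summed to 103.9 CPM per kb in wild type, 6.00 times the 17.3 of the receptor genes, and in Fbxl10 T/T the receptors summed to 124.1, 1.48 times the 83.8 of the ligands. With merged exons as the length, chosen after the data were seen, these ratios were 5.57 and 1.32, Flt1 ranked behind Pdgfra in Fbxl10 T/T, and in wild type Pdgfb ranked ahead of Pdgfra, and Pdgfrb ahead of Flt1.

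**Figure D3:**
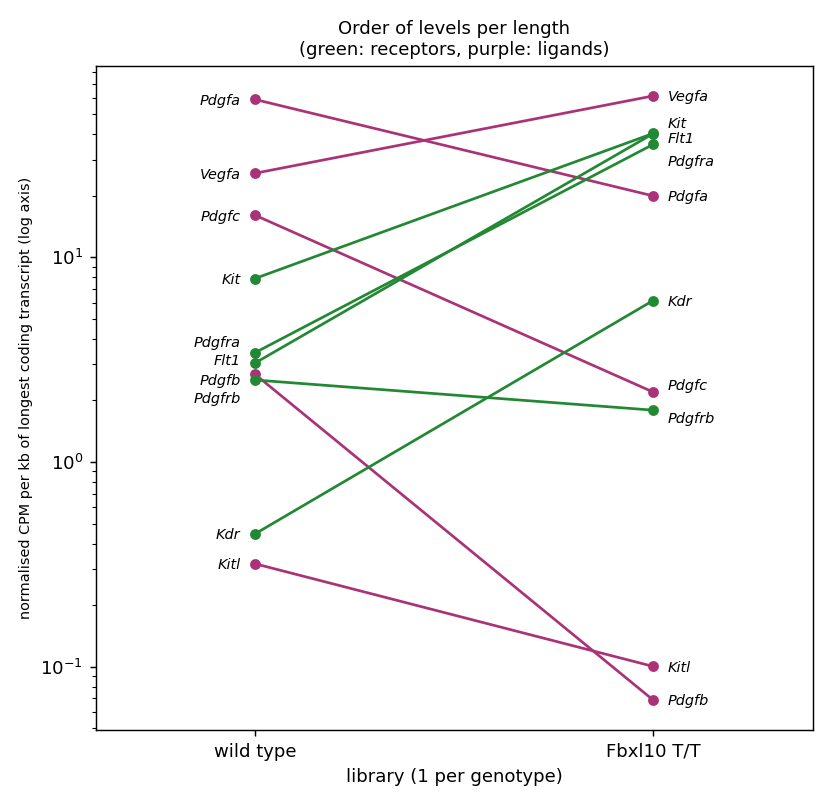
Level of each gene per length (normalised CPM per kb, log axis) in the wild-type and Fbxl10 T/T library, with a line joining the values of a gene. Lines of 4 receptors (green) slope upward, and those of all ligands (purple) but Vegfa slope downward.

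Pdgfra, Kit and Kdr are neighbours on chromosome 5, in that order, with 376.8 kb between the listed ends of Pdgfra and Kit and 276.1 kb between Kit and Kdr. No listed gene lies between them. Within 1 Mb on either side 12 other genes were listed, of which 3 were at least 2-fold higher, 1 was lower and 8 lay in between, with a median log2 ratio of 0.54. Over all genes 14.8% were higher, 20.6% lower and 64.7% in between. The closest listed gene before Pdgfra was Chic2, at 45.0 and 114.5 CPM (2.54-fold higher). The closest after Kdr was Srd5a3, a steroid and polyprenol reductase gene, at 18.5 and 55.9 CPM (3.02-fold higher), followed by the Golgi ion transporter gene Tmem165, at 100.1 and 206.8 CPM (2.07-fold higher), which was inside 2-fold after the T/T values were divided to match the wild-type median or upper quartile, leaving 2 higher neighbours. Clock, a circadian transcription factor gene, had a log2 ratio of 0.93, and Exoc1 and Cep135 had 0.82 and 0.87. With a pseudocount of 0.1 CPM 4 neighbours were higher and 1 lower. At a 1.5-fold threshold 6 were higher and 1 lower, where 3582 of all 13512 genes were higher. The genes at the outer edges were near 0: Fip1l1, Rasl11b and Scfd2 on the Pdgfra side were at 0.26, 0.22 and -0.28, and Aasdh and Ppat on the other at 0.00 and 0.10. C530008M17Rik was the lower gene, at 5.95 and 1.09 CPM. The lowest of the 3 receptor ratios, that of Kit, was 0.77 above the highest neighbour on the log2 scale, so the receptors stood above each of the 12 neighbours.

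**Figure D4:**
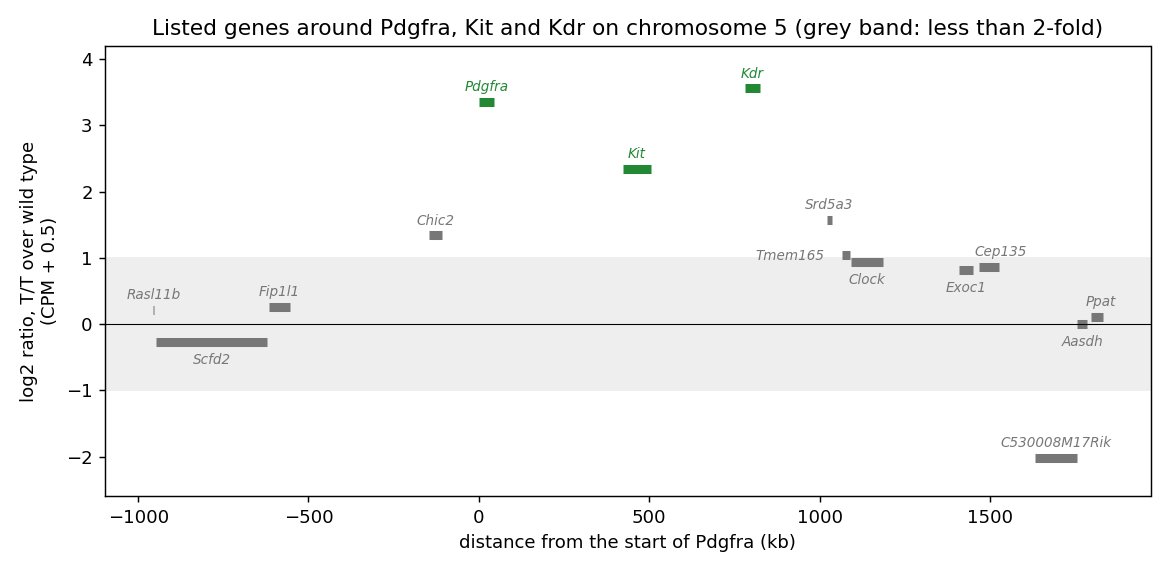
Log2 ratio of every listed gene within 1 Mb of the Pdgfra, Kit and Kdr interval against its distance from the start of Pdgfra (kb); bars span the listed gene. The 3 receptors (green) lie above all 12 neighbours (grey), of which Chic2, Srd5a3 and Tmem165 are also past 2-fold.

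Flt1 and Pdgfa lie on the same chromosome, which makes 5 of the 10 genes, and 4 of these 5 were higher. Over the 864 measured genes of chromosome 5, 12.5% were at least 2-fold higher and 22.0% lower, with a median log2 ratio of -0.03. The altered locus Kdm2b, from 123320688 to 123439832, is 46.9 Mb past Kdr, 16.0 Mb before Pdgfa and 24.9 Mb before Flt1. An effect of the altered locus on them was not tested.

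Among the other receptors and ligands of these families more genes were lower than higher, as over all genes, where 20.6% were lower and 14.8% higher. Of 5 listed receptors and co-receptors 1 was higher and 3 were lower (median -1.41). Csf1r, the macrophage colony-stimulating factor receptor gene and a relative of Kit and the PDGF receptors, was at 5.36 and 48.6 CPM, 9.07-fold higher (7.55 to 11.0). The neuropilin gene Nrp2, a VEGF co-receptor, was at 81.7 and 11.5 CPM and Flt4, the receptor gene for VEGF-C, at 11.0 and 2.11 CPM. Nrp1, the other neuropilin gene, was at 7.79 and 8.30 CPM. Among 7 listed ligands 3 were lower and none was higher (median -0.97). Il34, which encodes a ligand of CSF1R, had 113 wild-type reads and 3 T/T reads (38.9-fold lower, 13.0 to 191.6), and Vegfc was at 17.5 and 1.66 CPM. Il34 reached 1 CPM in wild type only, so it entered the count through the library where it is high. Vegfb (29.1 and 48.2 CPM) and Flt3l (1937 and 1674 CPM) had the largest ratios of these ligands. Csf1r and Il34 thus had opposite signs, as had Kit and Kitl. Flt4 and Vegfc had the same sign, at 5.23-fold lower (3.87 to 7.18) and 10.5-fold lower (7.62 to 14.9).

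Of 10 genes that process or release ligands 3 were higher and 3 lower (median 0.31), where 14.8% of all genes were higher and 20.6% lower. Plat, which encodes tissue plasminogen activator, a protease known to activate PDGF-C, was at 22.7 and 241.5 CPM, 10.7-fold higher (9.76 to 11.7), while Pdgfc itself was lower. Adam10, a sheddase gene, was at 15.8 and 97.1 CPM. Pcsk6, a proprotein convertase gene, and Mmp9, a metalloprotease gene, were at 100.6 and 11.0 CPM and at 69.8 and 19.0 CPM.

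Of 30 adaptor and effector genes inside the cell 22 lay within 2-fold, as did 64.7% of all genes, 6 were higher and 2 lower. At a 1.5-fold threshold 12 were higher and 8 lower. The median log2 ratio was 0.10 and changed sign, to -0.12 with 4 genes higher and 5 lower, with the libraries at a common upper quartile. The kinase gene Lyn was at 6.99 and 106.8 CPM, 15.3-fold higher, and the docking protein gene Gab2 at 5.23 and 28.8 CPM. Plcg2, a phospholipase C gene, was at 40.6 and 2.75 CPM, and the exchange factor gene Vav1 had 78 and 3 reads (26.9-fold lower, 8.86 to 133.1). Of 16 genes of the RAS-ERK and AKT cascade 14 lay within 2-fold (median 0.35). Akt1, a kinase gene of the PI3K route, was higher, at 166.9 and 426.7 CPM, while Nras was at 94.3 and 171.2 CPM and Araf at 83.1 and 61.7 CPM.

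Of 15 genes that attenuate receptors 5 were lower and 1 higher (median -0.19), where 20.6% of all genes were lower and 14.8% higher. Grb10, an imprinted adaptor gene, went from 722.7 to 54.4 CPM and the lipid phosphatase gene Inpp5d from 43.7 to 3.69 CPM. Ptprb, a phosphatase gene of endothelium, was at 0.670 CPM (16 reads) and 6.44 CPM (159 reads), and Socs3 at 195.9 and 329.3 CPM. Of 20 ERK response genes 11 were lower and 1 higher (median -1.22), against the same 20.6% and 14.8% of all genes. Etv5 and Spry4 were at 258.1 and 27.3 CPM and at 316.3 and 43.8 CPM, whereas the ERK phosphatase gene Dusp4 was at 82.1 and 262.0 CPM and Junb at 138.5 and 214.1 CPM. Fgf4, which encodes the main ERK-activating ligand of ES cells and is named here after its value was seen, was at 360.7 and 24.1 CPM, and its part in the response genes was not tested.

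**Figure D5:**
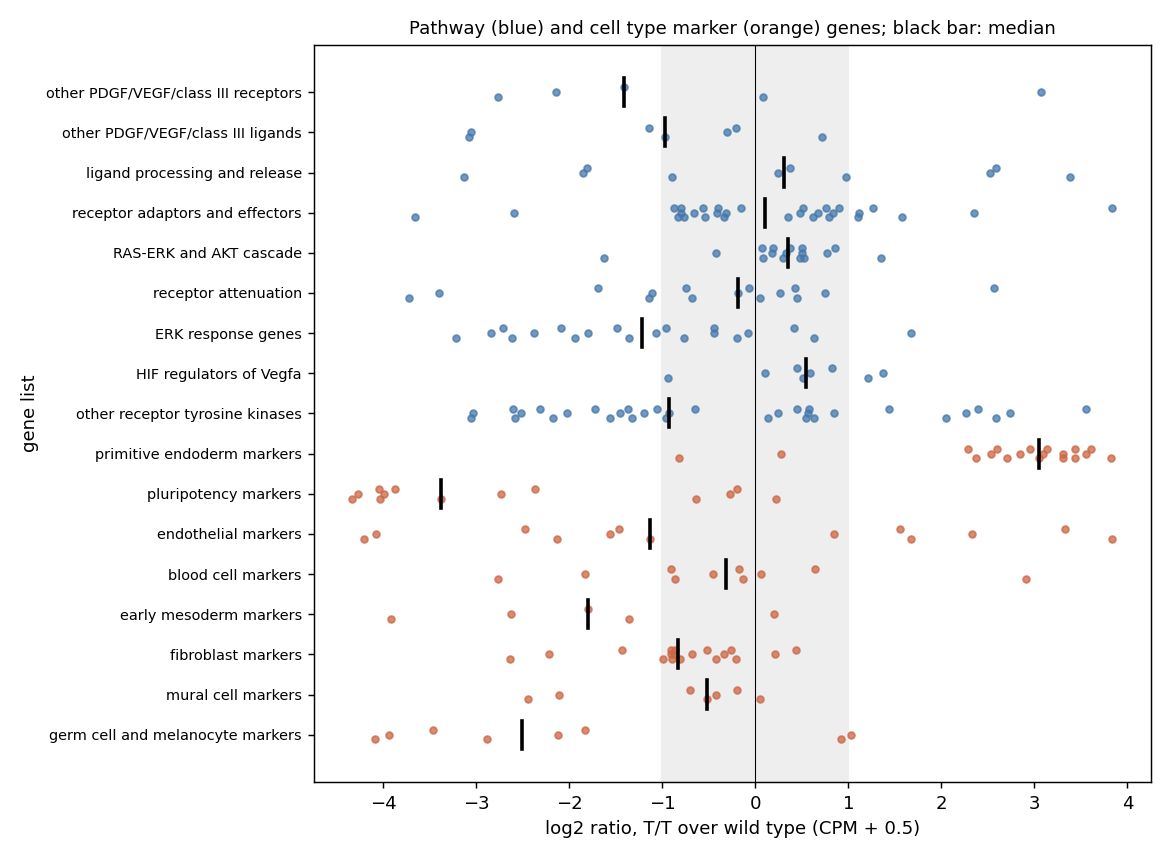
Log2 ratios of the genes of each pathway list (blue) and cell type marker list (orange), 1 point per gene that reached 1 CPM in either library, with the median as a black bar and less than 2-fold in grey. Primitive endoderm markers lie to the right (median 3.05) and pluripotency markers to the left (median -3.38), while most cascade genes lie within the band.

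Markers of cells that could carry these receptors also differed between the libraries. Of 19 listed primitive endoderm markers 17 were higher and none lower (median 3.05), where 14.8% of all genes were higher. Sox17 was at 35.8 and 514.7 CPM and Lama1 at 823.3 and 10036 CPM, while Ttr (6.57 and 8.06 CPM) and Sall4 (591.7 and 334.5 CPM), which is also a pluripotency factor gene, had the smallest ratios. The ratios of Pdgfra, Kdr and Flt1 (3.35, 3.56 and 3.69) were above this median and that of Kit (2.34) was below it. Of the 13 pluripotency markers 9 were lower and none higher (median -3.38), where 20.6% of all genes were lower. Nr0b1 and Tdgf1 were at 339.8 and 16.4 CPM and at 1128 and 58.0 CPM, and Klf4 and Tbx3 at 591.1 and 513.7 CPM and at 218.9 and 255.6 CPM. The part of these shifts in the receptor and ligand values was not tested.

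Endothelial markers, which would accompany Kdr and Flt1 in vessel cells, moved in both directions: 5 of 13 were higher and 7 lower (median -1.13), with sums of 270.7 and 359.3 CPM. Over all genes 14.8% were higher and 20.6% lower. Vwf, Cd34, Tie1, Cldn5 and Sox18 reached 1 CPM in wild type only, and Icam2 in Fbxl10 T/T only. These genes thus entered the counts through the library where they are high. The sign of the endothelial median depended on low genes, among them Tie1, Cldn5 and Sox18: it was 1.20, with 4 genes higher and 3 lower, once 5 CPM was required in either library. Esam and Cdh5, junction protein genes, were at 7.96 and 120.3 CPM and at 3.94 and 44.2 CPM, but Pecam1 and Eng were at 73.7 and 3.89 CPM and at 128.6 and 6.48 CPM. Early mesoderm markers, beside which Kdr is also found, were lower in 4 of 5 listed cases (sums of 68.6 and 15.6 CPM), and the other 6 names of that list were not analysed here. Hand1, Mesp2 and Lmo2 reached 1 CPM in wild type only, so they entered this count through the library where they are high. Hand1 was at 18.05 and 0.729 CPM, Mesp2 at 4.61 and 0.324 CPM, Lmo2 at 1.93 and 0.446 CPM and Foxf1 at 2.09 and 2.47 CPM. Of 10 blood cell markers at 1 CPM or more 1, Runx1, was higher, at 26.0 and 199.0 CPM, and 2 were lower, or 4 with a pseudocount of 0.1 CPM, with list sums of 72.0 and 226.6 CPM. Gata2, Tal1 and Klf1 were at 14.5 and 1.70 CPM, at 3.14 and 0.527 CPM and at 0.544 and 1.13 CPM. Tal1, 1 of the 2 lower genes, reached 1 CPM in wild type only.

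Of 8 germ cell and melanocyte markers, 2 kinds of cell in which Kit acts, 6 were lower and 1, Pmel, was higher (sums of 135.8 and 22.2 CPM). Over all genes 20.6% were lower and 14.8% higher. The 6 lower genes were germ cell genes. Of these, Dazl, Ddx4 and Dppa3 reached 1 CPM in wild type only, so they entered this count through the library where they are high. Pmel was inside 2-fold after either division. Tfap2c and Prdm14 were at 76.2 and 4.01 CPM and at 27.1 and 1.30 CPM, and the pigment cell genes Mitf and Pmel at 0.921 and 2.19 CPM and at 5.49 and 11.7 CPM. Fibroblast markers, which include those of feeder cells, numbered 3 lower and 0 higher of 18 (median -0.84, sums of 1782 and 1156 CPM), where 20.6% of all genes were lower. With the libraries at a common upper quartile 10 were lower, while lower genes among all genes went from 2781 to 3230. Twist1 was at 28.6 and 4.17 CPM and Fstl1 at 372.0 and 79.5 CPM, against 101.6 and 117.3 CPM for Col1a1 and 10.8 and 14.9 CPM for Postn. Mural cell markers had a median of -0.52, near the -0.47 of Pdgfrb, with sums of 604.6 and 464.3 CPM. Of 7, 2 were lower and none higher, against the same 20.6% of all genes lower. Anpep and Des were at 11.7 and 1.74 CPM and at 24.5 and 5.27 CPM, and Notch3 and Acta2 at 60.2 and 52.3 CPM and at 213.9 and 221.6 CPM. No listed marker of these 8 cell lists was at 0 in either library, and the part of feeder and other cells in the Pdgfrb and Pdgfra values was not tested.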

How the data were processed

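Gene-level values of 1 wild-type and 1 Fbxl10 T/T ES cell library were used. The submitters' processing notes name build mm9 and, without roles, TopHat 1.4.1, edgeR and HTSeq 0.5.3p9; which annotation was used, and whether counting used strand, is not given in the sources used here. In each library the deposited signal is a normalised CPM. All values (100%) were whole multiples of 1 step within 0.01 reads (0.0419 CPM for wild type, 0.0405 CPM for Fbxl10 T/T) and were turned back into reads. The authors also deposited a log2 ratio per gene and a log2 mean level; the mean was not used. The 24706 rows held 13620 distinct genes.

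Computed from these were ratios with a pseudocount of 0.5 CPM, Clopper-Pearson and Poisson 95% intervals, a delta-method interval for differences of ratios, and counts past 2-fold among genes that reached 1 CPM in either library. A comparison of the reads of the libraries by a two-sided exact binomial test with Benjamini-Hochberg adjustment at 0.05 found 5792 genes higher and 5580 lower of 13620; it does not compare the genotypes. Of 276 names in the lists, 239 matched a symbol in the table and 8 more matched through the GENCODE M21 symbol of the identifier. Unmatched genes were not analysed here, and the values of 1 cascade gene are not reported here. Named genes are the 10 genes, Kdm2b, the neighbours of Pdgfra, Kit and Kdr, and the 2 largest and 2 smallest ratios of each list. The genes and lists were chosen with earlier results of these data known. Promoter sequences and lengths came from RefSeq (GRCm38.p6) and GENCODE M21, matched by name or identifier. Steps were tested on simulated reads. Software: matplotlib 3.10.9, scipy 1.17.1, pandas 2.3.3 and numpy 2.4.6 under Python 3.11.15.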

Additional observations from a re-analysis of the deposited data

How the results depend on the processing

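No paired analysis was possible because each genotype had a single library, and none could be left out. Dividing the T/T values to a common median or upper quartile shifted ratios by 0.17 or 0.23 on the log2 scale. It left the signs of all 10 genes and 4 receptors higher, 4 ligands lower and 1 ligand higher, while the split of all genes past 2-fold went from 1994 higher and 2781 lower to 1597 and 3084, or to 1453 and 3230. The log2 ratio of Vegfa, the 1 higher ligand, moved to 1.09 and 1.03, just past 2-fold. The fibroblast marker median moved to -0.99 and -1.05. With a pseudocount of 0.1 or 1 CPM the difference of Pdgfra from Pdgfb was 8.10 or 6.22 and that of Pdgfrb from Pdgfb 4.24 or 2.44, as Pdgfb is low in T/T. Ligands lower numbered 3 with a pseudocount of 1 CPM or a minimum of 5 CPM, because of Kitl. At 4-fold, 4 receptors stayed higher, 2 ligands were lower and 0 higher, and over all genes 519 were higher and 1229 lower. At 1.5-fold 3582 genes were higher, and with a minimum of 5 CPM 1737 were lower, since fewer genes were counted; that minimum left 2 early mesoderm markers lower. Requiring the binomial test as well left 1994 and 2781. At this read depth that test called 5792 genes higher and 5580 lower of 13620, so the unchanged counts are no check of the 2-fold classes. List medians that changed sign were those of adaptors (to -0.059 or -0.12 at a common median or upper quartile), endothelial markers (1.20) and other receptor tyrosine kinases (0.24), both at the 5 CPM minimum; the other list medians kept their sign. Read depth limits Pdgfb and Kitl most, with 5 and 14 reads in T/T.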

Other observations

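Of 33 other receptor tyrosine kinase genes listed, 7 were at least 2-fold higher and 15 lower, where 14.8% and 20.6% of all genes were. The median log2 ratio was -0.93, but 0.24 with a minimum of 5 CPM, where 6 were higher and 11 lower. Mertk, a receptor gene for the uptake of dying cells, was at 2.68 CPM (64 reads) in wild type and 36.9 CPM (911 reads) in Fbxl10 T/T, 13.8-fold higher (10.7 to 18.03). Fgfr4, an FGF receptor gene, was at 15.9 and 109 CPM, 6.84-fold higher (6.14 to 7.63). At the other end, Erbb3, a neuregulin receptor gene, was at 76.4 and 8.71 CPM, and Ror2, a Wnt receptor gene, at 20.5 and 2.07 CPM. The log2 ratios of Mertk and Kdr were both 3.56, from 64 and 63 reads in wild type. No cause was tested for these values.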
